A study of Neurospora crassa with 112 samples.

Results

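The genes described here are 16 runs of neighbouring genes of the filamentous ascomycete *Neurospora crassa* whose mRNA levels moved together over wild strains. A run was 3 or more consecutive gene numbers (NCU numbers) in which each adjacent pair had a Pearson r of at least 0.7 on log2(RPKM + 1). RPKM is the number of reads mapped to a gene, scaled by its length and by the size of the library. Only genes whose mean reached 1 RPKM were used. The 16 runs held 51 genes, which is 0.639% of the 7985 genes that passed this filter, of 9733 genes in the table. There were 14 runs of 3 genes, 1 run of 4 genes (NCU05761 to NCU05764) and 1 run of 5 genes (NCU12011 to NCU12015). These same values chose the runs, so every r over all libraries below is a description and carries no test.

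PolyA RNA came from mycelium of 112 strains, all titled as isolates from Louisiana and most of them wild. They were grown for 16 h on cellophane on Bird medium, with 1 library for each strain. The labels gave 1 grouping, the strain series: 72 JW strains, against 10 D strains and 30 strains with a Fungal Genetics Stock Center (FGSC) number, among them the laboratory strain FGSC 2489. No strain carried an added agent or an engineered allele by its labels. Between 87.1% and 89.5% of the genes had the same value in the 2 columns of each of 4 pairs (FGSC 4448 with D110, FGSC 4449 with D111, FGSC 4453 with D112, and FGSC 4500 with D119), against 0% in any other pair of columns, so each of these pairs was averaged and counted as 1 library, which leaves 72 JW and 36 D or FGSC libraries. Totals recovered from the RPKM steps were 8366944 to 29804014 reads in JW libraries (median 19835136) and 4174767 to 30748165 reads in D or FGSC libraries (median 11861308). With 1 culture for each strain, a difference between strains and a difference between cultures cannot be told apart, nor can fewer cells of a type and less RNA per cell. Whether a strain lacked a gene, or carried a diverged copy whose reads did not map, was not tested. Absent reads cannot tell these from low mRNA.

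In fungi, genes that act in 1 pathway often lie side by side, as do the quinic acid genes of *N. crassa* and many clusters for secondary metabolites. Neighbours can also share the promoter region between them, or a stretch of chromatin that is opened or closed as a block. Many clusters for secondary metabolites are known for being silent under most conditions and strongly expressed in a few.

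Most run members varied widely and were weakly expressed. Spread and level were read from the same values that chose the runs. Their contrast with all genes is therefore a description and carries no test. The SD of log2(RPKM + 1) over the 72 JW and 36 D or FGSC libraries had a median of 1.16 over the 51 members and 0.378 over all 7985 genes, and 36 members lay among the most variable genes (top 10% by SD). Their mean level had a median of 7.81 RPKM, against 24.4 RPKM over all genes, with 28 members under 10 RPKM and 6 members at 100 RPKM or more. In 24 members at least 1 library held 0 reads, and 27 members had reads in every library. The adjacent r in the runs spanned 0.70 to 0.98, with a median of 0.90 over 35 pairs. Of all 6091 pairs of consecutive numbers, 161 reached the threshold (2.64%), and of all 31876120 pairs of genes 49719 did (0.156%). The share fell with distance in the numbering, to 0.981% at a step of 2, 0.430% at a step of 3 and 0.195% at a step of 10. A further 126 pairs of 2 genes passed without reaching the minimum of 3. Just under the threshold, NCU05885 and NCU05886 (r = 0.695) would have lengthened the run of NCU05886, and NCU00874 with NCU00875 (0.698) and NCU07081 with NCU07082 (0.697) would have made runs of their own, whereas the weakest link inside a run was NCU09630 with NCU09631 (0.701).

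**Figure D1:**
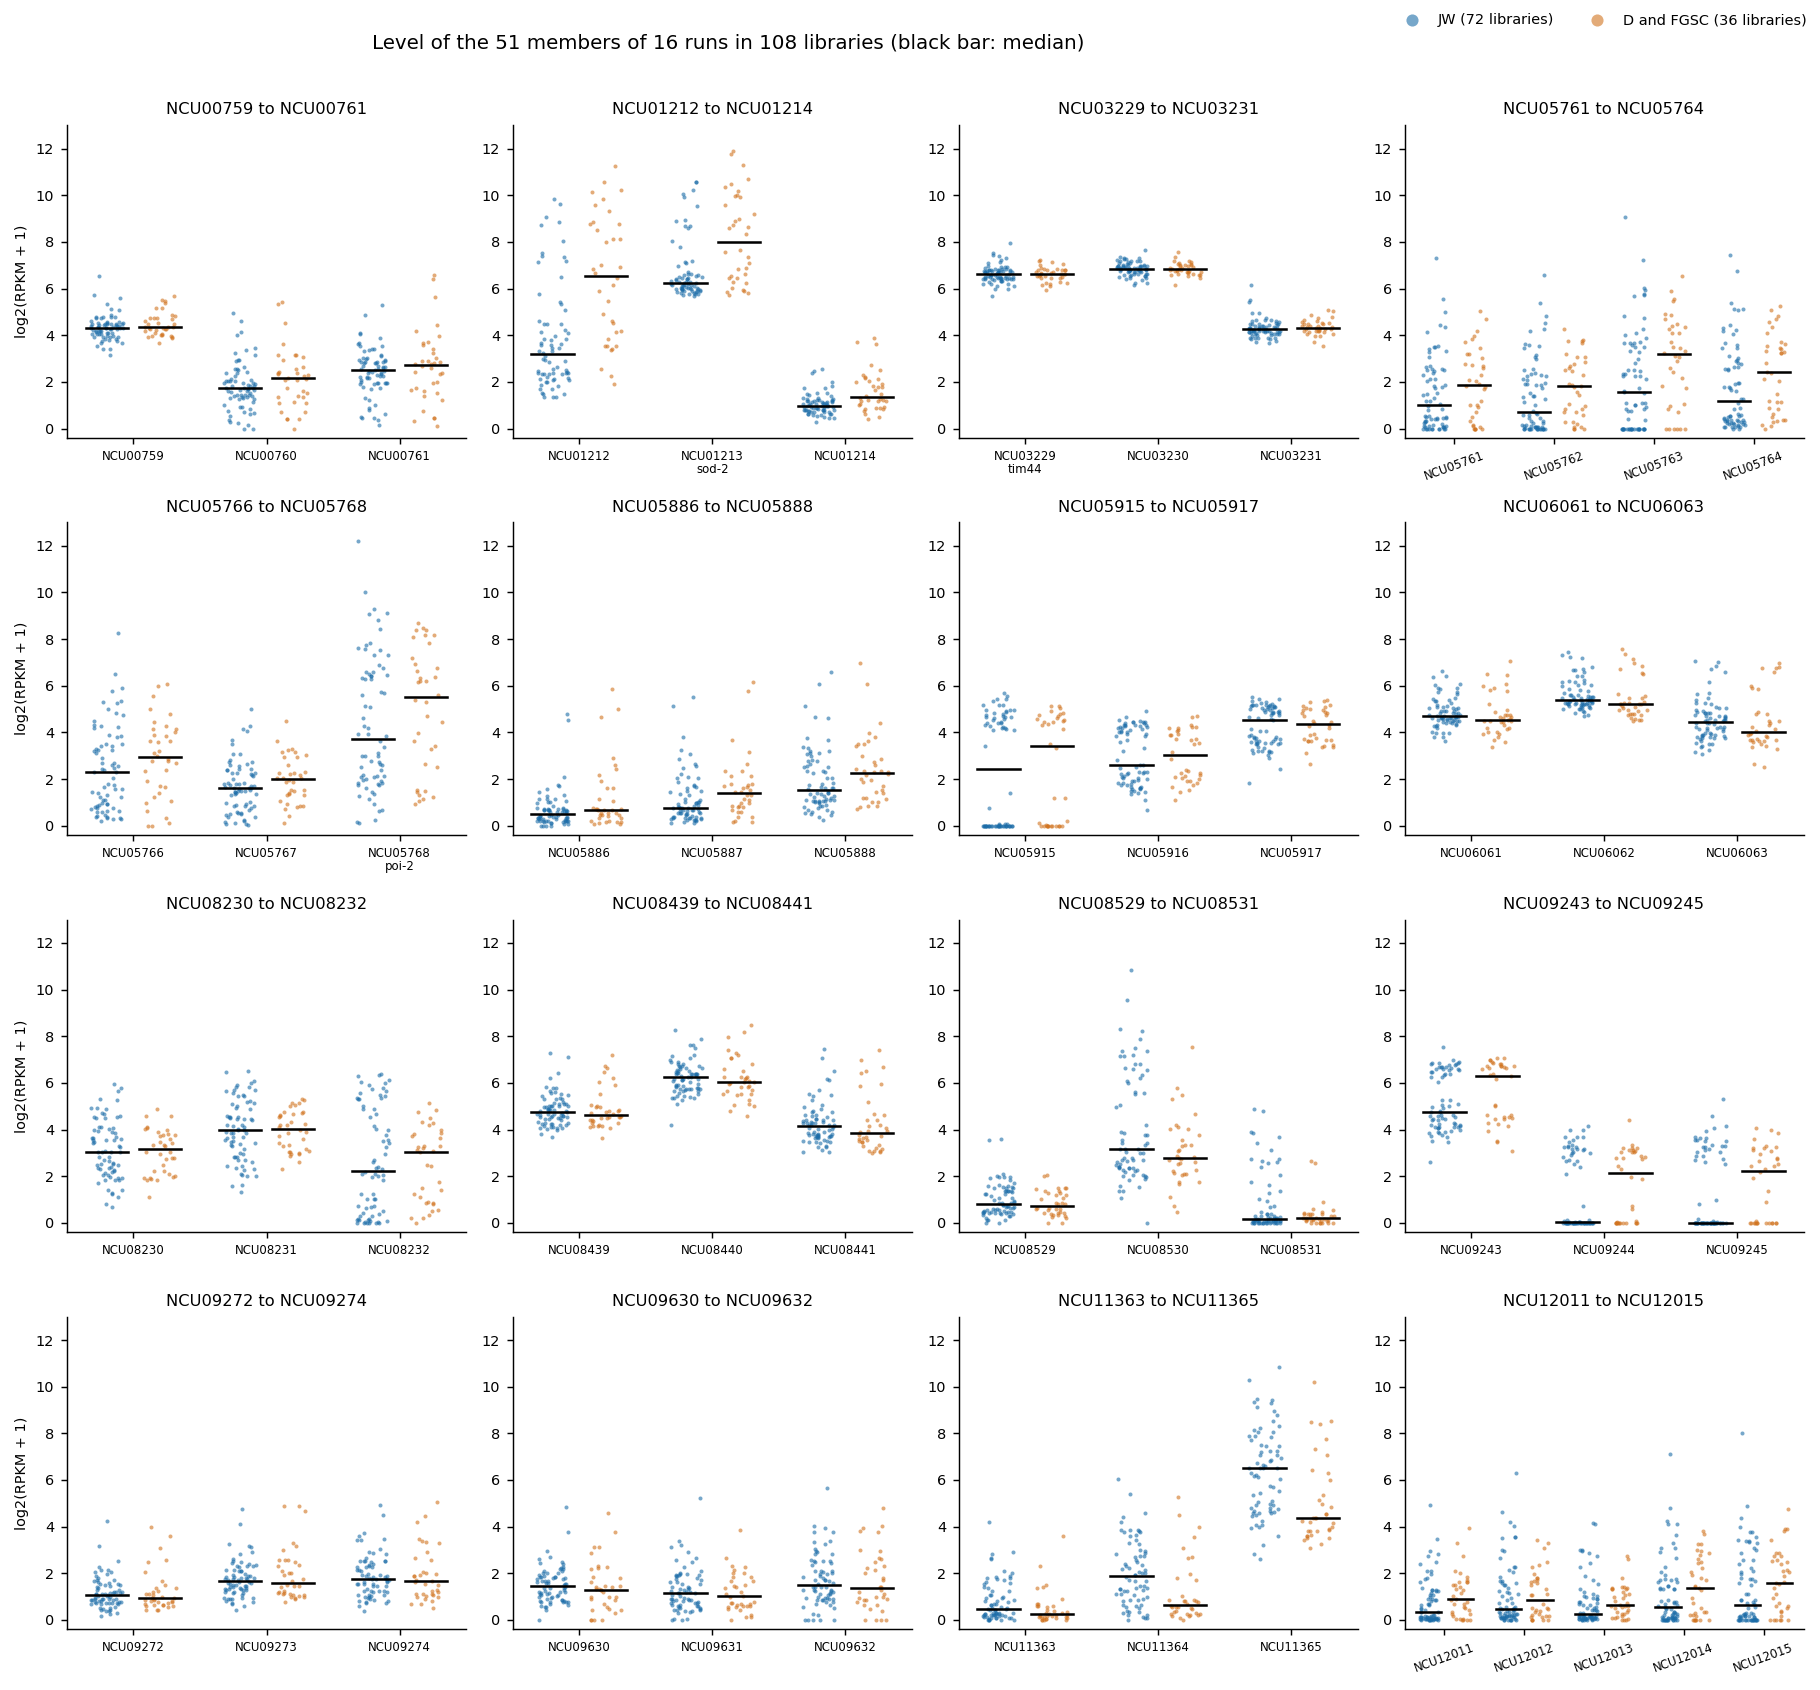
Level of each of the 51 members as log2(RPKM + 1) on the y axis, with 1 point a library, JW (72 libraries) left of D and FGSC (36 libraries), and a black bar at each median. NCU05915, NCU09244 and NCU09245 lie near 0 in many libraries and higher in the others, and *tim44* (NCU03229) and its neighbours lie in a narrow band.

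Consecutive numbers were mostly physical neighbours. In the NC12 assembly of RefSeq, 46 of the 51 members could be matched, all but NCU12011 to NCU12015, and 29 of the 31 matched pairs were direct neighbours along a chromosome (88.8% of all consecutive pairs matched were). The exceptions were NCU05763 with NCU05764 and NCU09273 with NCU09274. Chromosome VII held 5 runs, chromosome I 3 runs, chromosomes II and III 2 each, and chromosomes IV, V and VI 1 each. Annotated spans overlapped in 3 run pairs (9.68%; 14.8% of all pairs), namely NCU00760 with NCU00761, *tim44* with NCU03230, and NCU11364 with NCU11365. Gene lengths were worked out from the RPKM steps by trying multiples of 3 first. That they were multiples of 3 for 100% of genes therefore cannot show that reads were counted over coding sequence. Whether strand was used is not given either, and for those 3 pairs reads of overlapping neighbours may not have been kept apart. Only 3 members carry a gene symbol, *sod-2* (NCU01213), *tim44* (NCU03229) and *poi-2* (NCU05768), and no role is given here to the others.

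The rule can be applied in one strain series and read in the other. Applied to JW libraries alone it gave 18 runs with 41 adjacent pairs, of which 35 (85.4%) had r of at least 0.7 in the D or FGSC libraries, where 3.79% of all adjacent pairs did. The median r of those 41 pairs in the D or FGSC libraries was 0.87, against 0.17 over all adjacent pairs, and 13 of the 18 runs were whole there. Applied to D or FGSC libraries alone it gave 19 runs with 42 pairs, of which 27 (64.3%) reached 0.7 in JW libraries, against 2.86% of all adjacent pairs, with a median r of 0.77 and a lowest r of -0.14, and 10 of the 19 runs were whole there. Of the 35 pairs of the 16 runs, 34 reached 0.7 within JW and 32 within D or FGSC. The pair that fell short in JW was *sod-2* with NCU01214 (0.57), and those in D or FGSC were NCU08529 with NCU08530 (0.54), NCU08530 with NCU08531 (0.68) and NCU09631 with NCU09632 (0.67). With the 2 most distant libraries of each run left out, 30 of the 35 pairs stayed at 0.7 or more.

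**Figure D2:**
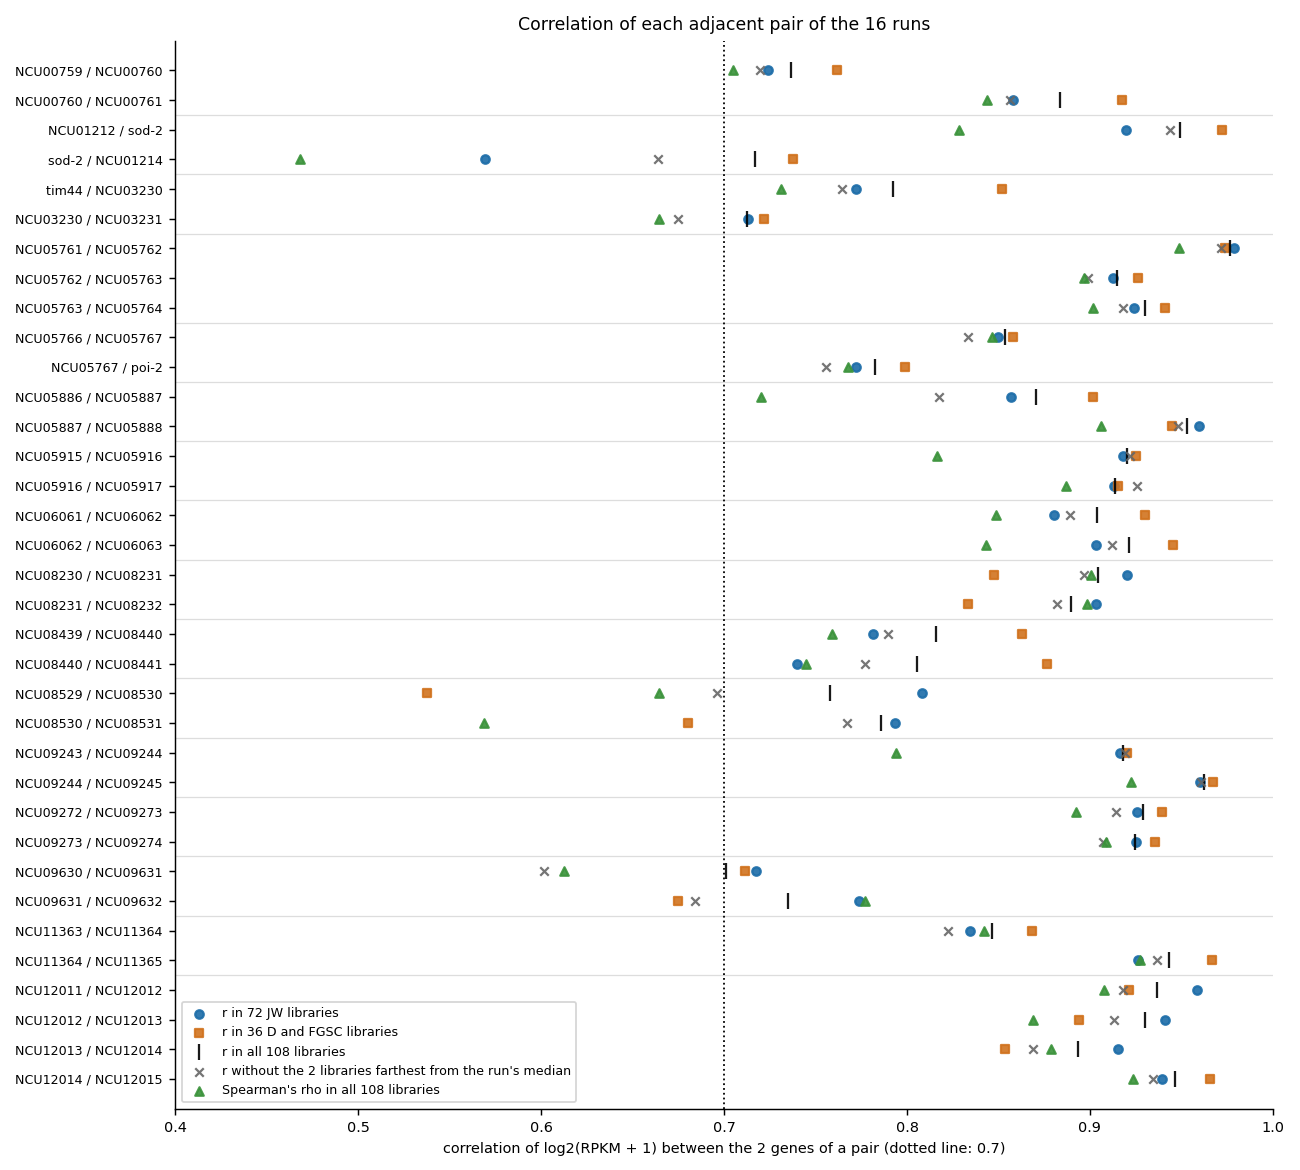
Correlation of log2(RPKM + 1) on the x axis for each of the 35 adjacent pairs on the y axis, in 72 JW libraries, 36 D and FGSC libraries, all libraries, all but the 2 most distant libraries, and as Spearman's rho. *sod-2* with NCU01214 spreads from a rho of 0.47 to an r of 0.74 in D and FGSC, and NCU05761 with NCU05762 lies at 0.948 or more by every measure.

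Another 2 runs moved with the run of *poi-2*, a gene that *N. crassa* needs for normal sexual development. The level of *poi-2* was lowest at 0.0727 RPKM in JW206, had a median of 17.7 RPKM and reached 4766 RPKM in JW234, 1030 RPKM in JW20 and 619 RPKM in JW220. Its median was 12.3 RPKM over JW and 44.7 RPKM over D or FGSC libraries, and the D or FGSC range lay within that of JW. The neighbours in its run followed it at lower levels: NCU05766 had a median of 4.71 RPKM and reached 301 RPKM, and NCU05767 had a median of 2.19 RPKM and reached 30.8 RPKM, both in JW234. Adjacent r was 0.85 (NCU05766 with NCU05767) and 0.78 (NCU05767 with *poi-2*), and 0.77 and 0.80 for the weaker pair within JW and within D or FGSC.

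The 4 genes NCU05761 to NCU05764 lie next to the *poi-2* run on chromosome VII, parted from it in the numbering only by NCU05765, which has no row in the table. All 4 were highest in JW234, at 159 RPKM (NCU05761), 94.9 RPKM (NCU05762), 536 RPKM (NCU05763) and 172 RPKM (NCU05764), and all 4 were second highest in JW20, at 45.4, 40.1, 147 and 107 RPKM in the same order. Medians were 1.37, 1.30, 3.72 and 2.09 RPKM. Reads were absent in 15 libraries for NCU05761, 19 for NCU05762, 29 for NCU05763 and 3 for NCU05764, and in 11 libraries for NCU05761 and NCU05762 at once. NCU05763 has a recovered length of only 141 bases. A count of 0 there allows a level of up to 0.692 to 4.72 RPKM (3 reads, and such limits cover counting error only). For NCU05762 a count of 0 allows at most 0.543 RPKM. NCU05761 with NCU05762 was the closest pair of all runs (r = 0.98, and 0.98 in JW, 0.97 in D or FGSC, 0.95 as rho). If gaps in the numbering were allowed, this run and the *poi-2* run joined into a single run of 7 genes.

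The 5 genes NCU12011 to NCU12015 followed the same strains. NCU12015 reached 257 RPKM and NCU12014 136 RPKM in JW234, NCU12012 reached 78.0 RPKM and NCU12011 29.4 RPKM there, and NCU12013 was highest in JW20 at 16.96 RPKM, with 16.2 RPKM in JW234. Medians lay between 0.35 and 0.82 RPKM, and between 8 (NCU12013) and 24 (NCU12015) libraries held no read. Their adjacent r was 0.89 to 0.95 and the lowest r between any 2 of the 5 was 0.866. The run level, which is the mean of log2(RPKM + 1) over a run's members, correlated at 0.97 between the NCU05761 run and the *poi-2* run, at 0.97 between the NCU05761 run and the NCU12011 run, and at 0.94 between the *poi-2* run and the NCU12011 run, with 0.94 to 0.97 within JW and 0.95 to 0.97 within D or FGSC. Each point is a library, and all values of a library share 1 culture and 1 depth. No gene outside these 3 runs had r of at least 0.7 with any of the 3 run levels. JW234, JW20 and JW220 were the 3 highest libraries in each of the 3, FGSC 4496 was 4th or 5th, and JW234 stood at a run level of 7.60 against a median of 1.56 for NCU05761 to NCU05764. Between series, none of these 12 genes passed the test given below, with differences of -0.86 (NCU05763) to -0.02 (NCU12012).

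**Figure D3:**
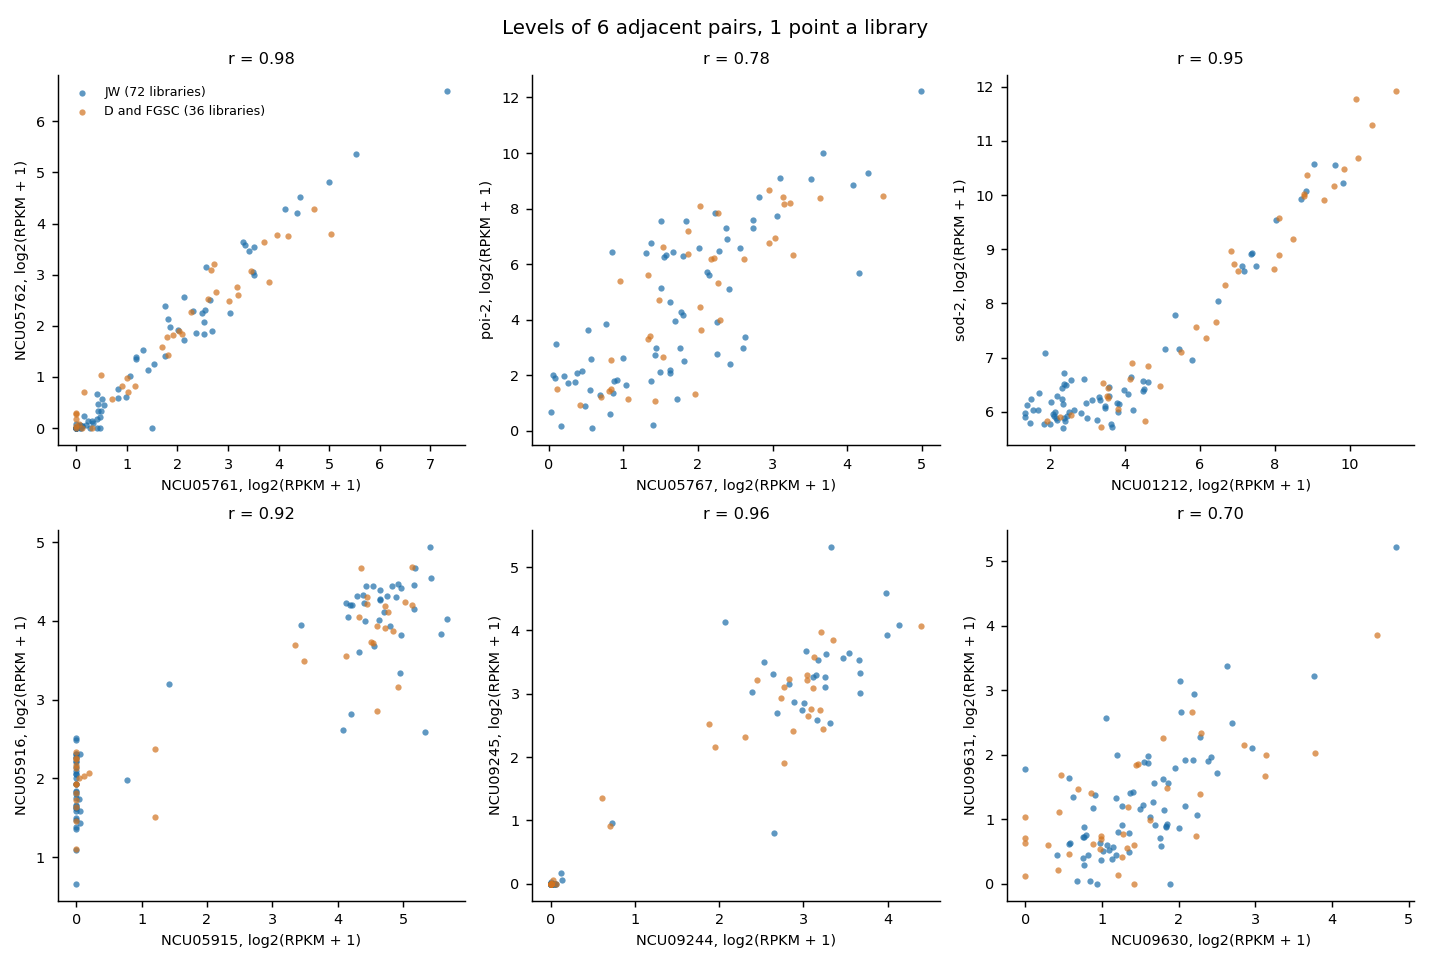
Levels of 6 adjacent pairs as log2(RPKM + 1) on both axes, with 1 point a library and colours for JW (72 libraries) and for D and FGSC (36 libraries). NCU05761 and NCU05762 follow a line (r = 0.98), *sod-2* with NCU01212 stands at 0.95, and NCU05915 with NCU05916 and NCU09244 with NCU09245 form separate clouds.

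A run on chromosome V held *sod-2*, which encodes a superoxide dismutase, an enzyme that removes superoxide, between NCU01212 and NCU01214. NCU01212 was at 1.52, 8.10 and 906 RPKM (lowest, median and highest) in JW libraries and at 2.75, 93.1 and 2405 RPKM in D or FGSC libraries. *sod-2* was at 50.9, 74.4 and 1533 RPKM in JW libraries and at 51.6, 263 and 3865 RPKM in D or FGSC libraries, and NCU01214 at 0.230, 0.979 and 4.88 RPKM in JW libraries and at 0.327, 1.53 and 13.9 RPKM in D or FGSC libraries. The series overlapped for all 3 genes, but the highest values were in FGSC strains: FGSC 4496, FGSC 4472, FGSC 4497 and FGSC 4476 led the run level, and the 10 lowest libraries were all JW. *sod-2* kept a floor near 50 RPKM, while NCU01212 fell to values under 2 RPKM. NCU01212 and *sod-2* had r = 0.95 (0.92 in JW, 0.97 in D or FGSC), whereas *sod-2* with NCU01214 had 0.72 (0.57 in JW, 0.74 in D or FGSC) and a rho of 0.47, and this link was under 0.7 without FGSC 4496 and FGSC 4472 (0.66) and with the library total removed (0.64).

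The *sod-2* run had 14 genes outside it with r of at least 0.7 to its level. The closest were NCU03788 (0.90), NCU00829 (0.89), NCU08194 (0.88), *tcu-1* (0.88), which encodes a copper transporter, and NCU08193 (0.86). From the list of copper and superoxide dismutase genes, *tcu-3* stood at 0.82 and *tcu-2* at 0.34, and *sod-1*, which encodes the copper and zinc superoxide dismutase, at -0.86. These are correlations over the same libraries, and the run level also moved with depth, at r = -0.60 to the log2 library total, the strongest of any run (the others lay between -0.26 and 0.36).

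For the strain series, 4 of the 51 members (7.84%) passed limma's moderated test at a Benjamini-Hochberg adjusted p under 0.05. Of all 7985 genes 179 passed (2.24%, with 1.16% higher in JW and 1.08% lower in JW). A shift between series that neighbours share also raises their r, and the rule used these same libraries. The 7.84% therefore cannot be read as an excess over 2.24%. With the series means removed the rule gave 15 runs of 48 genes. The difference is the mean of log2(RPKM + 1) in JW minus that in D or FGSC, a scale on which the pseudocount understates changes of weakly expressed genes. All 3 genes of the *sod-2* run were lower in JW, with differences of -2.62 for NCU01212 (SE 0.48, adjusted p = 0.000216), -1.43 for *sod-2* (SE 0.31, adjusted p = 0.00403) and -0.56 for NCU01214 (SE 0.13, adjusted p = 0.00693). NCU01212 averaged 66.98 ± 167 RPKM in JW libraries (SD, n = 72) and 333 ± 527 RPKM in D or FGSC libraries (SD, n = 36), so both spreads exceed the means. When log2 of the library total entered the model, none of the 51 members passed by limma, beside 0.388% of all genes (10 members had an unadjusted p under 0.05, as did 11.7% of all genes), and NCU01212, *sod-2* and NCU01214 stood at -1.52, -0.71 and -0.39 (adjusted p = 0.111, 0.264 and 0.154). Depth differs between the series, and its part in these differences was not separated further.

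NCU11365 was the only member that passed the test as higher in JW. It was at 5.10, 89.6 and 1847 RPKM (lowest, median and highest) in JW libraries and at 7.43, 19.6 and 1174 RPKM in D or FGSC libraries, so the D or FGSC range lay within that of JW while the medians lay apart. Its difference was 1.299 (SE 0.37, limma adjusted p = 0.0399), and it did not pass with the library total in the model (0.84, adjusted p = 0.384), with each of the 112 columns as its own library (1.15, adjusted p = 0.0505) or with limma-voom on the recovered reads (1.198, adjusted p = 0.112). Its neighbour NCU11364, with a median of 2.69 RPKM over JW and 0.557 RPKM over D or FGSC libraries, differed by 0.79 (SE 0.28, adjusted p = 0.0986), and NCU11363 by 0.31 (SE 0.17, adjusted p = 0.299). At an unadjusted p under 0.05 by limma there were 9 of the 51 members, a share near the 18.9% of all genes, the other 5 being NCU11364, NCU05763, NCU05886, NCU08530 and NCU08531. Over the 51 members the median difference was -0.05, and over all genes 0.00.

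**Figure D4:**
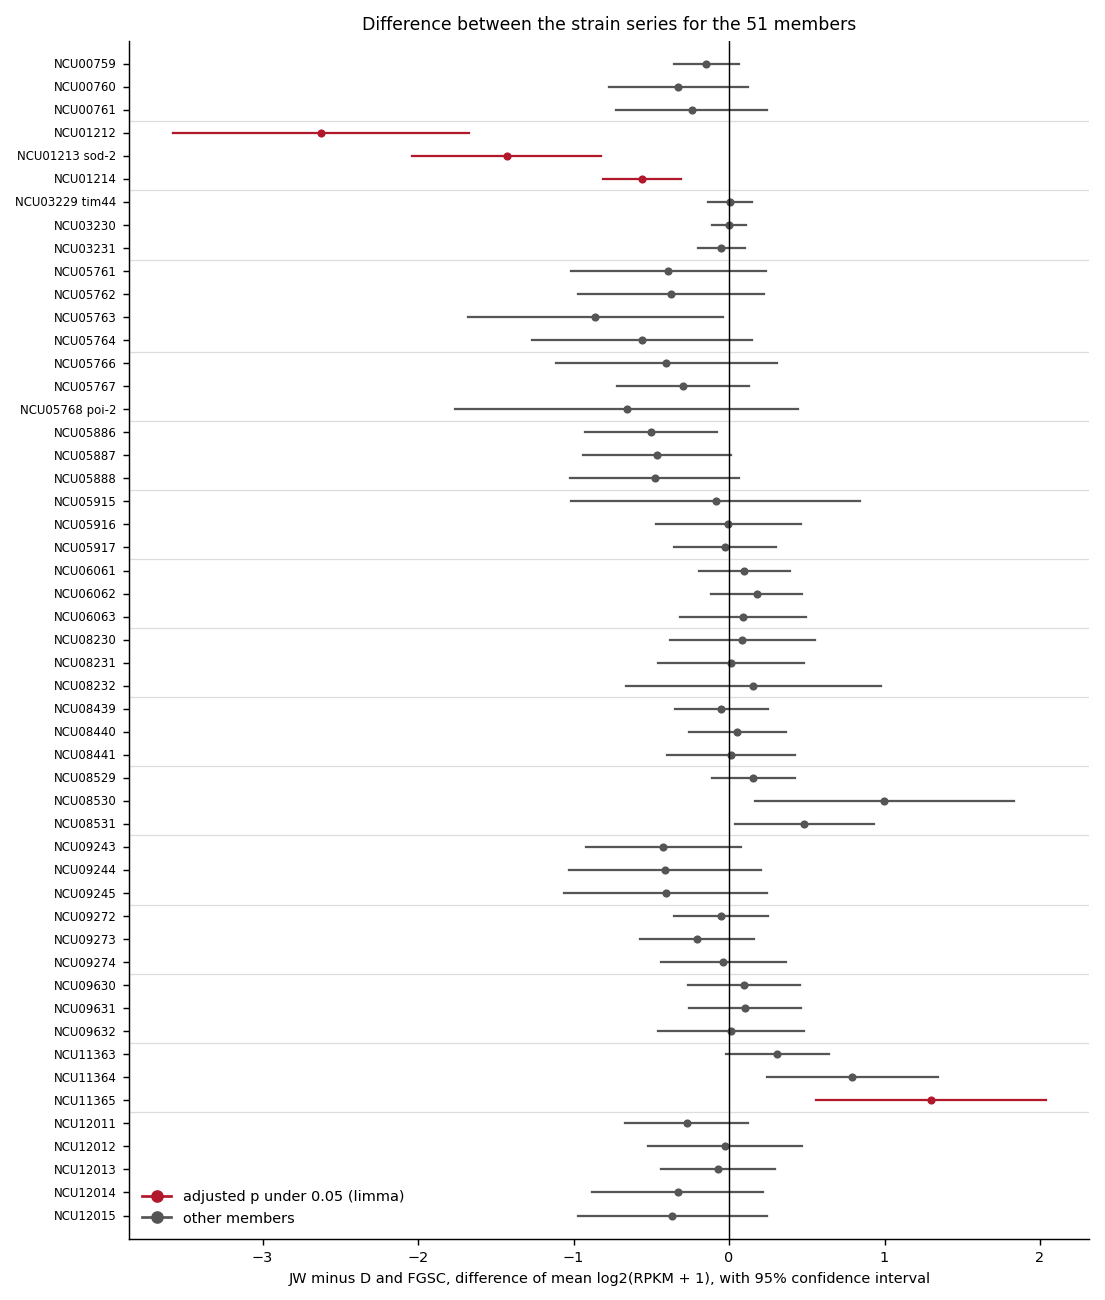
Difference in mean log2(RPKM + 1), JW minus D and FGSC, on the x axis with its 95% confidence interval for each of the 51 members on the y axis, in red where limma's adjusted p was under 0.05. The intervals of NCU01212, *sod-2*, NCU01214 and NCU11365 lie off 0, and those of the *tim44* run are narrow around it.

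NCU11363 to NCU11365, on chromosome IV, were led by JW160. In that library NCU11365 was at 1847 RPKM, NCU11364 at 64.8 RPKM and NCU11363 at 17.6 RPKM, against medians of 48.6, 1.55 and 0.31 RPKM over all libraries. FGSC 4487, JW174 and JW176 came next by run level and JW234 was lowest. Adjacent r was 0.85 and 0.94, the closer pair being the one whose annotated spans overlap. The run level had r of at least 0.7 with 53 other genes, led by NCU12110 (0.89), NCU05045 (0.86) and NCU06376 (0.86).

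NCU08529 to NCU08531, on chromosome III, had r = 0.71 with it (0.73 within JW, 0.65 within D or FGSC, rho 0.60). NCU08530 reached 1828 RPKM in JW161, 758 RPKM in JW160 and 314 RPKM in JW184, from a median of 7.11 RPKM, and 14 libraries were over 100 RPKM. NCU08529 was far lower, with a median of 0.72 RPKM and a maximum of 10.9 RPKM in JW160. NCU08531 was under 1 RPKM in 87 libraries and reached 28.2 RPKM in JW184. Of the 10 highest libraries by run level 9 were JW. NCU08529 and NCU08531, at the 2 ends of the run, had r = 0.56, and without JW161 and JW160 the weaker adjacent link was at 0.696, just under the threshold. The run level had r of at least 0.7 with 48 other genes, led by NCU04778, NCU08535 and NCU09972 (0.85 each), with *cel-1*, a fatty acid synthase gene, at 0.84.

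Another pair of runs on different chromosomes moved together. NCU06061 to NCU06063 (chromosome VII) and NCU08439 to NCU08441 (chromosome II) had run levels with r = 0.90 (0.86 within JW, 0.94 within D or FGSC, rho 0.80). NCU06062 was at 21.5, 39.01 and 189 RPKM (lowest, median and highest), NCU06061 at 9.42, 24.5 and 132 RPKM, and NCU06063 at 4.78, 19.3 and 132 RPKM. The lowest of each was FGSC 4496, and FGSC 4457 held the highest NCU06061 and NCU06062 and JW266 the highest NCU06063. NCU08440 was at 17.3, 70.5 and 355 RPKM, and NCU08439 at 11.4, 25.1 and 154 RPKM. NCU08441, the member with the longest recovered length (6105 bases), was at 6.97, 15.2 and 176 RPKM. FGSC 4457, FGSC 4468 and JW27 were among the 4 highest libraries of both runs. All 6 genes had reads in every library, with at least 70 reads. Adjacent r was 0.90 and 0.92 in the NCU06061 run and 0.82 and 0.81 in the NCU08439 run. Beyond each other, the closest gene to both was NCU06132 (0.80 and 0.86).

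**Figure D5:**
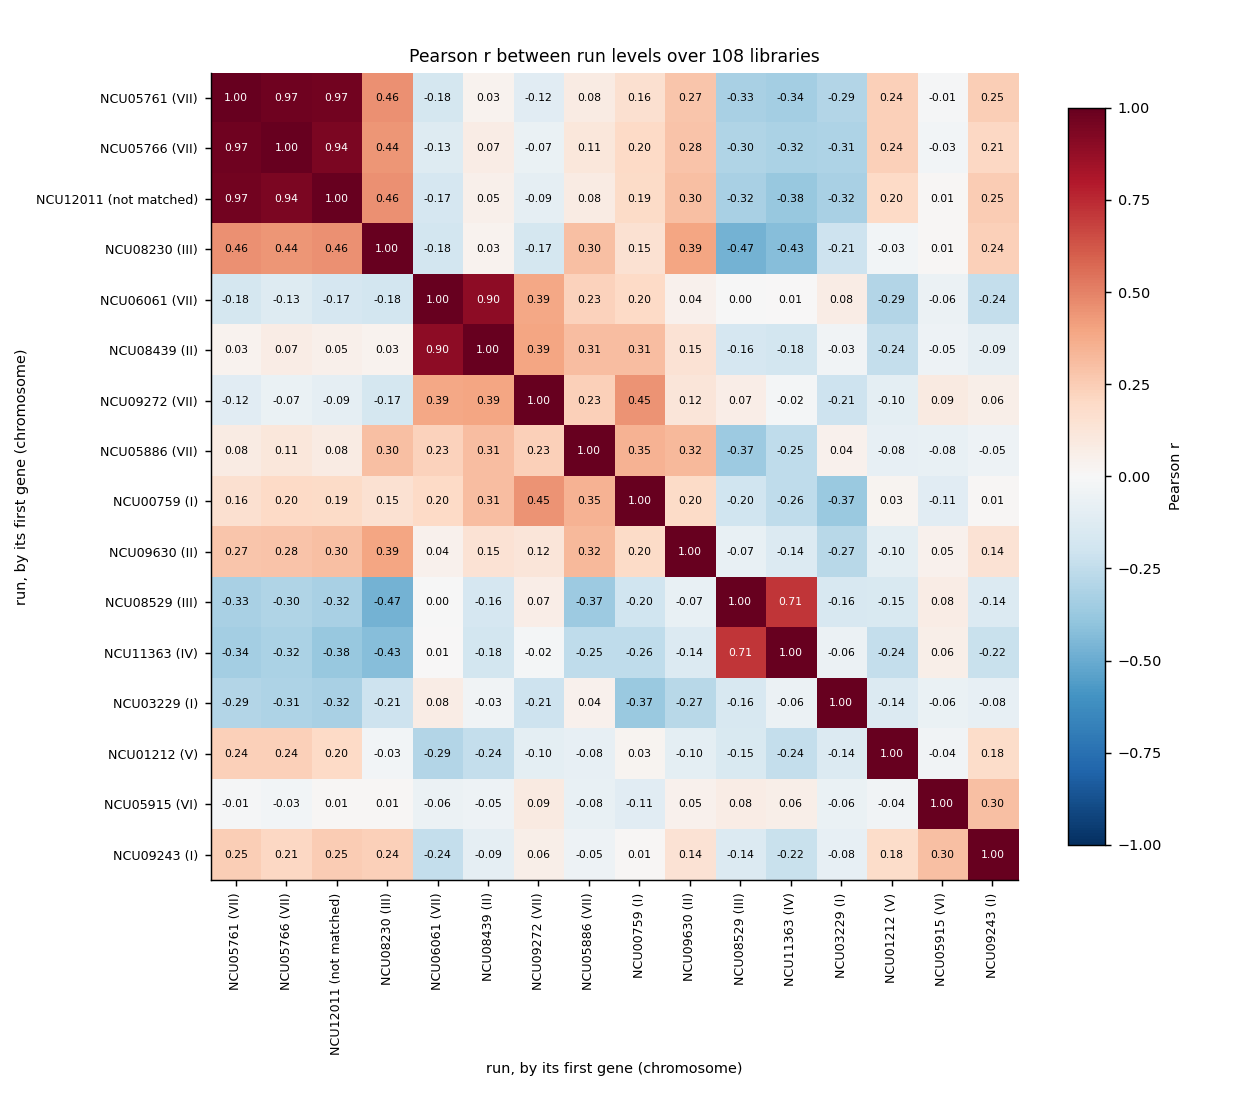
Pearson r over all libraries between the levels of the 16 runs, each named by its first gene and chromosome on both axes, from -1 (blue) to 1 (red). The NCU05761, NCU05766 and NCU12011 runs form a block at 0.94 to 0.97, NCU06061 with NCU08439 stands at 0.90, and NCU05915 stays between -0.11 and 0.30 with every other run.

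In 2 runs the libraries fell into 2 separate clouds. When the run levels of all libraries were put in order, the widest gap with at least 6 libraries on either side was 28.8% of the whole range for NCU09243 to NCU09245 and 16.3% for NCU05915 to NCU05917, against at most 9.42% for any other run. The clouds were defined from the levels themselves, after these had been seen, so the ranges below only describe them.

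NCU09243 to NCU09245, on chromosome I, had 48 libraries above the gap (28 JW and 20 D or FGSC) and 60 below it (44 JW and 16 D or FGSC). Above it NCU09243 lay between 64.8 and 183 RPKM, and below it between 5.01 and 37.6 RPKM. NCU09244 lay between 2.67 and 20.1 RPKM above the gap and between 0 and 0.653 RPKM below it. NCU09245 lay between 0.737 and 38.8 RPKM above and between 0 and 1.54 RPKM below. Over all libraries, 47 held no read of NCU09244 and 53 none of NCU09245, and 46 held none of either, where a count of 0 allows at most 0.185 RPKM of NCU09244 and 0.403 RPKM of NCU09245. Over all libraries NCU09243 with NCU09244 had r = 0.92, but within the upper cloud r was 0.20 and within the lower cloud -0.06. NCU09244 with NCU09245 had 0.96 over all libraries, 0.49 in the upper cloud and 0.96 in the lower, where nearly all values are at or close to 0. No other gene reached r = 0.7 with this run, and the best was NCU05833 at 0.42.

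NCU05915 to NCU05917, on chromosome VI, had 56 libraries above the gap (37 JW and 19 D or FGSC) and 52 below it (35 JW and 17 D or FGSC). NCU05915 lay between 1.66 and 49.8 RPKM above and between 0 and 1.31 RPKM below, and it held no read in 42 libraries (30 JW and 12 D or FGSC), where a count of 0 allows at most 0.651 RPKM. NCU05916 lay between 5.01 and 29.6 RPKM above and between 0.585 and 4.72 RPKM below, and NCU05917 between 18.7 and 45.2 RPKM above and between 2.59 and 18.1 RPKM below, so its difference was one of degree. NCU05915 with NCU05916 had r = 0.92 over all libraries but 0.31 in the upper and 0.06 in the lower cloud. NCU05916 with NCU05917 had 0.91 over all libraries, and 0.53 in the upper and 0.54 in the lower cloud. The best gene outside it was NCU11986 at 0.39. The clouds of the 2 runs overlapped in part: 32 libraries were in the upper cloud of both, 24 of NCU05915 only, 16 of NCU09243 only and 36 of neither, and the run levels had r = 0.30 (0.40 within JW, 0.09 within D or FGSC).

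NCU08230 to NCU08232, on chromosome III, spread without a gap. NCU08231 was at 1.49, 14.7 and 89.9 RPKM (lowest, median and highest), NCU08230 at 0.587, 7.25 and 61.1 RPKM, and NCU08232 at 0, 4.33 and 83.0 RPKM with no read in 7 libraries. The 10 highest libraries by run level were all JW, led by JW206, JW220, JW246 and JW228, and 9 of the 10 lowest were JW too, with JW7 and JW5 at the very bottom. Adjacent r was 0.90 and 0.89. The level of this run had r of at least 0.7 with 74 other genes, led by NCU07129 (0.86), NCU07454 (0.84) and NCU05882 (0.82), with *gh61-9*, named for a family of enzymes that attack plant polysaccharides, at 0.81. It stood at -0.47 with the NCU08529 run and at -0.43 with the NCU11363 run, the lowest values among the 120 pairs of runs.

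NCU05886 to NCU05888, on chromosome VII, were low in most libraries and high in a few. Medians were 0.48, 0.91 and 2.30 RPKM. FGSC 4463 held the highest NCU05886 and NCU05888 (56.9 and 126 RPKM) and FGSC 4457 the highest NCU05887 (70.6 RPKM), followed by JW202 and JW27. Adjacent r was 0.87 and 0.95. The gene before the run, NCU05885, just missed the threshold (0.695), and the one before that, NCU05884, was the gene most like the run level of all those outside it (0.80); in the D or FGSC libraries alone the rule gave a run of 5 genes, NCU05884 to NCU05888. JW20, 2nd highest in the *poi-2* pattern, was lowest here, with no read of NCU05886.

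The *tim44* run on chromosome I varied least. *tim44* encodes a subunit of the motor that pulls proteins into mitochondria, and was at 50.6, 97.7 and 247 RPKM (lowest, median and highest). NCU03230 was at 70.1, 114.1 and 199.7 RPKM and NCU03231 at 10.5, 18.4 and 69.6 RPKM, all highest in JW202. The SD of NCU03230, 0.27, was the smallest of any member, and the 3 genes differed between series by 0.01, 0.00 and -0.05, with 95% confidence intervals reaching -0.20 at the lowest and 0.15 at the highest. The run level had r of at least 0.7 with 98 other genes, the largest number for any run. These were led by NCU02757 (0.92) and NCU01474 (0.90), with *tim50*, whose product receives proteins entering mitochondria, and *cyt-18*, which encodes the mitochondrial tyrosyl-tRNA synthetase, at 0.88 each. The conidia markers went the other way, at r = -0.59 (*con-10*) to -0.23 (*eas*). Without JW202 and JW230 the weaker link, NCU03230 with NCU03231, was at 0.67.

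The remaining 3 runs were moderate or low in most libraries, with a few high strains. NCU00759 to NCU00761 (chromosome I) had medians of 18.97, 2.41 and 4.82 RPKM, and NCU00761 reached 94.4 RPKM in FGSC 4469 and 83.8 RPKM in FGSC 4496. NCU09272 to NCU09274 (chromosome VII) had medians of 0.96, 2.16 and 2.31 RPKM and maxima of 18.2 RPKM in JW27, 28.9 RPKM in FGSC 4457 and 31.8 RPKM in FGSC 4469, with adjacent r of 0.93 and 0.92. NCU09630 to NCU09632 (chromosome II) had medians of 1.57, 1.14 and 1.69 RPKM and were all highest in JW234, at 27.5, 36.3 and 49.1 RPKM. This last run was the weakest, with adjacent r of 0.70 and 0.73 and a value of 0.60 without JW234 and FGSC 4469, and it would not be called a run without them. The NCU00759 and NCU09630 runs, like NCU05915 and NCU09243, had no other gene at r of at least 0.7.

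Markers of spores were compared with the runs because conidia can form on mycelium. Of 5 conidia markers 4 had a row, and the sum of *con-6*, *con-10*, *con-13* and *eas* was at 74.0, 2321 and 21216 RPKM (lowest, median and highest) in JW libraries and at 179, 4518 and 122124 RPKM in D or FGSC libraries. By the median of the 4 markers, r with a run level was highest for the NCU00759 run (0.52, range 0.26 to 0.65) and the NCU09272 run (0.48, range 0.23 to 0.61). For the 3 runs of the *poi-2* pattern, which were the highest for *eas* alone, this median was 0.26 to 0.30, and single markers lay between 0.10 and 0.45. For the NCU05915 run the median was -0.06, and single markers lay between -0.13 and 0.01. Of the 4 markers, *con-13* alone was at 0 in any library. The part of conidia in these runs was not tested. Of the sexual tissue markers, *poi-2* is itself a member, *ccg-4* was under the filter at a mean of 0.223 RPKM, and *mfa-1* had no row.

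For known gene groups the adjacent r is given as a description, since with 0.639% of the tested genes in runs a short list would mostly hold no member. None of the 7 quinic acid genes, which lie side by side, was a member: *qa-1S* with *qa-1F* had r = 0.62, *qa-X* with *qa-2* 0.44, *qa-Y* with *qa-1S* 0.24 and *qa-3* with *qa-Y* 0.12, and *qa-4*, at a mean of 0.763 RPKM, did not pass the filter. The conidiation genes *con-13* and *con-10* had r = 0.75 and *con-6* with NCU08770 had 0.86, but neither pair extended to a run, and none of the 7 measured conidiation genes was a member. The histone genes *hH4-1* and *hH3*, also consecutive in number, had r = 0.62. The 6 histone and 5 nitrate genes are scattered in the numbering, so they could not form a run with each other, and none was a member. The 3 mating type genes listed were under the filter. Of 5 copper and superoxide dismutase genes only *sod-2* was in a run.

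Strains differed in which runs they led. FGSC 4496 and JW234 were each among the 5 highest libraries in 6 of the 16 runs, sharing the *poi-2* pattern and the NCU09243 run, and FGSC 4457, FGSC 4469, JW220 and JW27 in 4 each. FGSC 4457 and JW27 led the same 4 runs, those of NCU05886, NCU06061, NCU08439 and NCU09272, and neither showed the *poi-2* pattern, with *poi-2* at 1.33 RPKM in FGSC 4457 and 4.29 RPKM in JW27. FGSC 4496 was also among the 5 lowest in 3 runs (NCU03229, NCU06061 and NCU08529) and JW234 in 2 (NCU03229 and NCU11363).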

How the data were processed

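RNA-seq values of 112 *N. crassa* strains were used as deposited: 1 table of RPKM per gene and strain, made by the authors. Reads were mapped with Bowtie 0.12.2 per the submitters' processing notes; the study's methods name Maq, the FGSC 2489 genome and release 10 for calling sequence variants, and the counting tool, strand use, build and annotation behind the RPKM values are not stated in the sources used here. Gene lengths were recovered from the RPKM steps, and whether they are coding lengths is not known. Every value above 0 came out as whole reads (100% of 9696 genes, within 0.001 of a read), and 0 columns belonged to no strain. Totals of 4174767 to 30748165 reads set the precision. The limits given for a count of 0 cover counting error only and leave out PCR duplicates. The confidence intervals by limma measure the spread between libraries.

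Near-identical columns were averaged, a mean of 1 RPKM or more required of each gene, and log2(RPKM + 1) correlated between consecutive NCU numbers with numpy 2.4.6 and pandas 2.3.3 (Python 3.11.15). The members and gene lists were chosen with earlier results of these data known. JW (72) and D or FGSC libraries (36) were compared with limma 3.58.1 (R 4.3.3), trend on, Benjamini-Hochberg over all 7985 genes. limma and the search for runs were tested on simulated data. Detailed values are given for runs of 4 or more genes, the 10 with the largest median SD, the 5 with the highest mean RPKM, and runs with a called member or a symbol. Names and neighbours came from RefSeq NC12 (8914 IDs matched). P-values measure only the spread between strains with 1 library each. Alternatives covered pseudocount, filter, threshold, scaling, depth, series, single strains and the meaning of consecutive.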

Additional observations from a re-analysis of the deposited data

How the results depend on the processing

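The number of runs was 12 to 22 (39 to 69 genes) under all alternatives but 3, against 16 runs and 51 genes. Similar counts did not mean the same members. D or FGSC libraries alone, filtered by their own means, gave 19 runs. These held 37 of the 51 members and 12 of the 16 runs whole. Neighbours along the NC12 chromosomes gave 16 runs, which held 42 members and 13 of the 16 runs whole. NCU12011 to NCU12015 could not be matched there. With a minimum mean of 5 RPKM it was 5 runs of 15 genes, which leaves out weakly expressed members by construction. With r of at least 0.6 it was 29 runs of 94 genes and with r of at least 0.8 it was 10 runs of 33 genes. All 16 runs kept every member with a pseudocount of 5 and without FGSC 2489, JW168, JW5 and JW7. They also did with no minimum mean, which holds by construction. The lowest adjacent r of each run, recomputed under 10 of these alternatives, stayed above 0. It was under 0.7 in 4 runs with a pseudocount of 0.1, by Spearman's rho, or without the 2 farthest libraries, and NCU09630 was among them each time.

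The share of genes past the threshold between series was 4.13% with quantile normalization (127 higher and 203 lower in JW), 0.388% with the log2 total in the model (8 higher and 23 lower), 3.62% with each column as its own library (158 higher and 131 lower), 3.83% without those 4 strains (194 higher and 112 lower) and 1.35% by limma-voom on recovered reads (27 higher and 81 lower), against 2.24% (93 higher and 86 lower). Members past it were 0 with the total and 3 or 4 otherwise. The adjusted p by limma over the alternatives was 1.5e-05 to 0.111 for NCU01212 and 0.0267 to 0.384 for NCU11365. No paired analysis was possible because each strain has 1 library and the labels give no replicate numbers. Depth limits NCU05763 (141 bases) and other members with 0 reads most.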
